A study of Mus musculus with 24 samples.

Results

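K-Luc cells, a mouse glioma line (KR158B cells carrying luciferase), were compared after 2 ways of receiving the same oligonucleotide and the same amount of single-walled carbon nanotubes. In the SWNT/CpG group the nanotubes were dispersed in the oligonucleotide CpG-28 itself, so that the DNA coated them ("joined"). In the CpG+SWNT/LP group CpG-28 was added beside nanotubes that were dispersed in Lipid-PEG2000-OMe ("unjoined"). Each group has 3 libraries, and these 6 of the 24 libraries of the series were chosen by their labels. CpG-28 and nanotubes were at 10 µg/mL in both groups, and lipid-PEG at 10 µg/mL was in the unjoined group alone. The contrast thus changes the joining and the lipid-PEG at once, and their parts in any difference cannot be told apart. Treatment lasted 17 to 19 h after 24 h of adhesion, in a migration assay with a 2-well culture insert, with K-Luc cells plated both inside and outside the insert. Replicate 1 of each group is labelled run 1 and replicates 2 and 3 run 2, so run was a term in the model. The labels do not say whether replicates were separate cultures, so p-values measure a spread between libraries that may be technical.

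The rest of the series gives the setting for these 6 libraries. K-Luc cells were also left in water (2 libraries) or given CpG-28 alone or nanotubes in lipid-PEG alone (SWNT/LP, 3 libraries each). RAW-Blue cells, mouse macrophages with a secreted reporter for NF-kB and AP-1, had the same 5 groups with 2 libraries each and were treated for 47 to 50 h. No group received an oligonucleotide without CpG.

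CpG oligonucleotides are recognised in endosomes by the receptor TLR9, and carbon nanotubes can carry DNA into cells. Bone morphogenetic proteins (BMPs) and TGF-beta belong to one family of secreted ligands. BMP receptors phosphorylate SMAD1, SMAD5 and SMAD9, which with SMAD4 switch on the Id genes and the inhibitor Smad6, while TGF-beta receptors act through SMAD2 and SMAD3 on a different set of genes, among them their own feedback inhibitors. Id proteins lack a DNA-binding region and hold other helix-loop-helix factors inactive, and in glioma they are known for their link to stem-like, dividing cells.

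The 6 libraries hold 13.6 to 23.5 M counts, with replicate 1 of the joined group the smallest. In a principal component analysis of the 6, the 1st component (51.6% of variance) parted the joined from the unjoined libraries, and the 2nd (31.8%) set both run 1 libraries apart from the 4 of run 2. Glial and glioma markers summed to 5817 to 6101 CPM (counts scaled by library size) in the joined and 6461 to 6623 CPM in the unjoined libraries. Most of these sums is Vim, the intermediate filament vimentin, which was itself called lower (-0.12 ± 0.04, adjusted p = 0.0331). Sox2, a neural stem cell factor, was at 103, 94.9 and 89.7 CPM in the joined and 140.1, 128 and 119 CPM in the unjoined libraries (-0.43 ± 0.05, adjusted p = 7.3e-06). Nes, the filament nestin, did not pass the test (0.14 ± 0.07, adjusted p = 0.21). Of the defining glial markers, Olig2 was at 0 in all 6 libraries and Gfap averaged under 1 CPM in both groups. The 12 macrophage markers summed to 12.5 to 14.2 CPM in the joined and 13.2 to 17.1 CPM in the unjoined libraries, against 6361 to 6739 CPM in untreated RAW-Blue cells. T and NK cell markers summed to at most 0.546 and 0.685 CPM. Neuron markers summed to 233 to 245 CPM in the joined and 202 to 229 CPM in the unjoined libraries, most of it Map2. Of 5 tested neuron markers 3 were called higher, and all 5 were above 0. Map2 (0.15 ± 0.04, adjusted p = 0.0118) and Tubb3 (0.43 ± 0.09, adjusted p = 0.00255) were called, Map2 not without the run term (0.129) or without replicate 2 (0.0631) or 3 of the joined group, while Rbfox3, the defining marker, averaged under 1 CPM in both groups. What part these marker levels have in any result was not tested. In such bulk samples fewer cells of a kind and less RNA per cell cannot be told apart.

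At an adjusted p under 0.05 (edgeR's quasi-likelihood test, Benjamini-Hochberg over all genes), 2194 of 12420 tested genes differed between joined and unjoined nanotubes, which is 17.7%. Of these, 1061 (8.54%) were higher and 1133 (9.12%) lower in the joined group. Such genes are called here, and counts in the gene lists below are to be read against these shares. Most of these differences were small: the median size among called genes was 0.31 log2 units, and only 62 rose and 40 fell by more than 2-fold. The median over all genes tested was -0.001. The 3 joined and 3 unjoined libraries did not overlap in 3581 genes (28.8%), the share against which the same remark on a named gene is to be read. With the replicate number as a block, 2062 rose and 1947 fell. In run 2 alone, 593 rose and 584 fell, and run 1, with 1 library a group, allows no test. The count of rises fell to 659 without replicate 1 of the unjoined group and to 691 without replicate 2 of the joined group, and the count of falls to 749 without replicate 1 of the joined group.

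**Figure D1:**
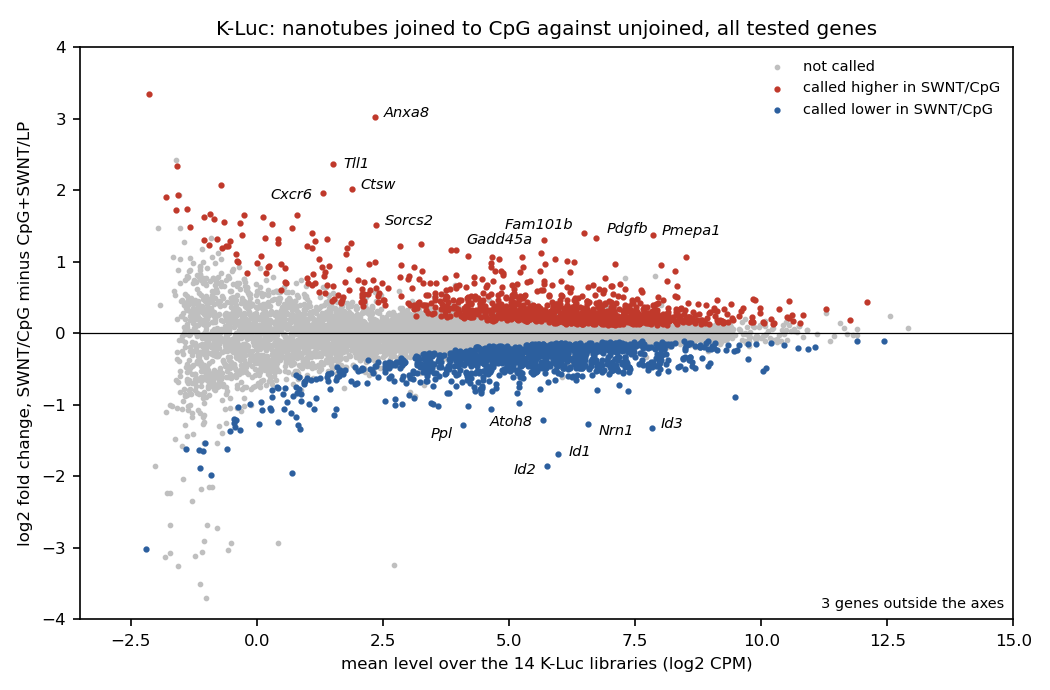
Each point is a tested gene in K-Luc cells, by its mean level over the 14 K-Luc libraries (log2 CPM, x axis) and its log2 fold change, SWNT/CpG minus CpG+SWNT/LP (y axis), with called rises in red and called falls in blue. Anxa8 has the largest named rise (3.02), Id2, Id1, Id3 and Atoh8 are among the largest falls, and 3 genes lie outside the axes.

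Among expressed genes whose libraries did not overlap, the 12 largest rises were led by genes of low level. Values in brackets are log2 fold changes ± SE, joined minus unjoined, unless stated otherwise. Anxa8, which encodes a calcium-dependent membrane-binding annexin, was at 18.8, 14.7 and 16.2 CPM in the 3 joined libraries and 2.32, 2.46 and 1.32 CPM in the 3 unjoined ones (3.02 ± 0.18, adjusted p = 2.64e-08). Tll1, a BMP1-like metalloprotease that can cleave the BMP antagonist chordin, was at 9.6, 7.14 and 5.65 against 1.59, 1.23 and 1.45 CPM (2.37 ± 0.19, adjusted p = 4.83e-07). Ctsw, a cysteine protease known from T and NK cells, was at 8.12, 8.85 and 8.9 against 1.64, 2.46 and 2.24 CPM (2.02 ± 0.12, adjusted p = 2.64e-08). The rule fixed that they lie apart from the unjoined libraries, and the joined libraries of all 3 were also above the 8 K-Luc libraries of the other treatments. The chemokine receptor Cxcr6, read as 4.73, 5.77 and 4.17 against 1.16, 1.06 and 1.54 CPM (1.96 ± 0.21, adjusted p = 7.08e-06), rose in cells whose T and NK marker sums stayed under 1 CPM in all 6 libraries. Sorcs2, a receptor for neurotrophin precursors, rose from 3.09, 3.56 and 4.22 to 10.8, 9.7 and 10.7 CPM (1.51 ± 0.14, adjusted p = 1.82e-06). The repressor Prdm1 (1.40 ± 0.26, adjusted p = 0.00108), the actin regulator Fam101b (1.40 ± 0.19, adjusted p = 0.00091), the collagen receptor subunit Itga2 (1.32 ± 0.18, adjusted p = 6.74e-05), the stress gene Gadd45a (1.30 ± 0.19, adjusted p = 0.000949) and the basement membrane collagen Col4a4 (1.29 ± 0.18, adjusted p = 0.000108) also rose. Pmepa1 and Pdgfb complete the 12.

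The 12 largest falls began with 3 genes of 1 family, Id2, Id1 and Id3, and also held Atoh8, another helix-loop-helix factor. Ppl, a plakin that ties desmosomes to intermediate filaments, was at 6.72, 7.66 and 8.39 CPM in the joined and 17.6, 19.1 and 19.1 CPM in the unjoined libraries (-1.29 ± 0.09, adjusted p = 2.02e-07). Nrn1, which encodes the membrane-anchored neurite factor neuritin, fell from 109, 123 and 119 to 45.1, 47.8 and 51.9 CPM (-1.28 ± 0.07, adjusted p = 8.47e-09). Kcna4, a voltage-gated potassium channel, fell from 3.77, 3.65 and 4.31 to 1.48, 1.85 and 1.95 CPM (-1.14 ± 0.15, adjusted p = 6.58e-05). Kcna4 was under 5 CPM in all 6 libraries. Notum, a secreted enzyme that inactivates Wnt ligands (-1.06 ± 0.20, adjusted p = 0.0013), the immunoglobulin superfamily gene Islr (-1.02 ± 0.17, adjusted p = 0.000718) and the sulfotransferase Chst1 (-1.01 ± 0.11, adjusted p = 6.11e-06) fell as well. The remaining 2 rest on less: Crygs, a crystallin (-1.06 ± 0.27, adjusted p = 0.0101), lost its call in run 2 alone (adjusted p = 0.0651), without replicate 2 of the unjoined group (0.0862) and without replicate 3 of the joined group. Aldh3a1, an aldehyde dehydrogenase (-1.06 ± 0.28, adjusted p = 0.0244), lost it in 7 of 14 alternatives, among them every leave-out except that of replicate 1 of the joined group, with adjusted p from 0.0391 to 0.0977.

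Most of the listed BMP target genes fell. Of 8 tested targets 5 fell and none rose, beside 9.12% and 8.54% of all genes. Their median log2 fold change was -0.96, against 0.04 for the whole BMP list of 29 and -0.001 for all genes. The 5 were Id1 to Id4 and Atoh8, and Id1, Id2, Id3 and Atoh8 are also among the 12 largest falls. The list was chosen with earlier results of these data known, so its count is no separate support. Id1 was at 24.3, 23.2 and 25.4 CPM in the joined libraries and at 64.2, 86.2 and 85.2 CPM in the unjoined ones (-1.70 ± 0.12, adjusted p = 1.04e-06). Id2 was at 18.2, 18.8 and 17.6 against 64.8, 68.4 and 62.8 CPM (-1.86 ± 0.17, adjusted p = 2.12e-05). Id3 was at 117, 121 and 120.5 against 277, 322 and 299.8 CPM (-1.33 ± 0.06, adjusted p = 1.03e-09). The joined libraries of each gene lay within a few CPM of one another. Id4, a member known from neural progenitors, was at 23, 15.1 and 17.6 against 34.7, 27 and 28.7 CPM (-0.71 ± 0.09, adjusted p = 3.37e-05), with replicate 1 the highest in both groups. Atoh8 was at 27.3, 28.1 and 32.2 against 63.7, 67.6 and 72.5 CPM (-1.22 ± 0.06, adjusted p = 3.62e-09). By the authors' RPKM, which is per length of transcript, Id3 was the most abundant of the Id genes in the unjoined group (mean 211 RPKM) and the joined group (84.0 RPKM). Id1 stood at 57.8 and 17.9 RPKM, Id2 at 34.5 and 9.57 RPKM, and Id4 at 12.2 and 7.50 RPKM in the same order, so the order of levels was the same in both groups.

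The promoters of Id2, Id3 and Smad6 are shown because these genes fell and the letters SMADs are known to bind can be looked for in them. Each run is the 300 bases from 250 before to 50 after the RefSeq start (GRCm38.p6, not the authors' build), 5′ to 3′ on the gene's strand, at chr12:25096043-25096342 (minus strand), chr4:136143572-136143871 (plus) and chr9:64022010-64022309 (minus). Capitals mark the palindrome GGCGCC, the letters CAGAC or their reverse complement, and the longer palindrome GTCTAGAC. Both strands were searched, and none of the marked stretches overlap. The start used for Id3 is RefSeq's, and the GENCODE transcripts of that gene begin at other positions.
Id2: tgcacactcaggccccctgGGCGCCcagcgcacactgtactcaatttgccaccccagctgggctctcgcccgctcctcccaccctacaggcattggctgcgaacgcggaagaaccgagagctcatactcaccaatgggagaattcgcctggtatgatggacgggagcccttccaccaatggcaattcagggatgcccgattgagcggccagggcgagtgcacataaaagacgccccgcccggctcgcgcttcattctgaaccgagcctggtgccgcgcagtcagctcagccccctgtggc
Id3: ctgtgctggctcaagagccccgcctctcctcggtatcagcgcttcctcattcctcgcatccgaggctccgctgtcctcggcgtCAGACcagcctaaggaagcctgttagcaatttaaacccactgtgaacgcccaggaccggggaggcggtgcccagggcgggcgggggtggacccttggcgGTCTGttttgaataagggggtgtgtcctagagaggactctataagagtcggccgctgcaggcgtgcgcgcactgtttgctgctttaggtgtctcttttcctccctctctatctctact
Smad6: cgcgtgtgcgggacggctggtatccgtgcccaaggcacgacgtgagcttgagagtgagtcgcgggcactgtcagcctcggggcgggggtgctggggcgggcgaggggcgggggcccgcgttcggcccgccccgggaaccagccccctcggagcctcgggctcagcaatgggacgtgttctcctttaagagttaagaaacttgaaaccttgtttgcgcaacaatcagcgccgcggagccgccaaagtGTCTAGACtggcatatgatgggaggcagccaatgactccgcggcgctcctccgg
GGCGCC stands at bases 20 to 25 of the Id2 run, CAGAC at 84 to 88 and its reverse complement at 183 to 187 of the Id3 run, and GTCTAGAC at 247 to 254 of the Smad6 run. Among 32851 promoters of the same length, 11.9% hold GGCGCC, 49.6% hold CAGAC and 0.213% GTCTAGAC, so the first 2 are common letters. Among 9449 promoters of tested genes the shares are 25.0%, 52.2% and 0.265%. Of the 7 BMP targets and inhibitors that fell, 5 had a promoter in the RefSeq table: 2 held GGCGCC, 1 held CAGAC and 1 held GTCTAGAC, and that of Atoh8 held none of them. In a window that begins 200 bases before the start, 1 of the 5 held GGCGCC, since the match of Id2 lies outside it. The match of letters says nothing of binding.

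Genes upstream and beside the targets moved less and in both directions. Over the whole BMP list 9 of 29 tested genes fell and 5 rose. The number of rises was 9 with the replicate block and 2 to 4 with 1 library left out, lowest without replicate 1 of the unjoined group. The number of falls was 8 or 9 in all of these. Smad6, the inhibitor that BMP signals induce, was at 18.6, 16.3 and 18.3 CPM in the joined and 23.4, 23.6 and 25.1 CPM in the unjoined libraries (-0.44 ± 0.08, adjusted p = 0.00146). Its joined mean was still above the 13.7 ± 0.197 CPM (SD, n = 2) of untreated cells, unlike the Id genes. The receptor-activated SMAD gene Smad9 fell from 6.72, 5.77 and 5.72 to 4.73, 3.55 and 3.66 CPM (-0.62 ± 0.12, adjusted p = 0.00136). Bmp4, the only one of the 2 tested ligands to be called, fell from 28.1, 23.4 and 29.4 to 21.4, 19.7 and 18.7 CPM (-0.44 ± 0.09, adjusted p = 0.00227). The type II receptor Bmpr2 rose (0.24 ± 0.05, adjusted p = 0.00233), as did Fstl1, a secreted BMP antagonist, from 582, 611 and 629.7 to 757, 774 and 767 CPM (0.33 ± 0.04, adjusted p = 4.53e-05). Groups did not overlap for any of these 5 genes, against 28.8% of all genes. The 9 tested inhibitors of the BMP list went both ways, with 3 rises and 2 falls.

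**Figure D2:**
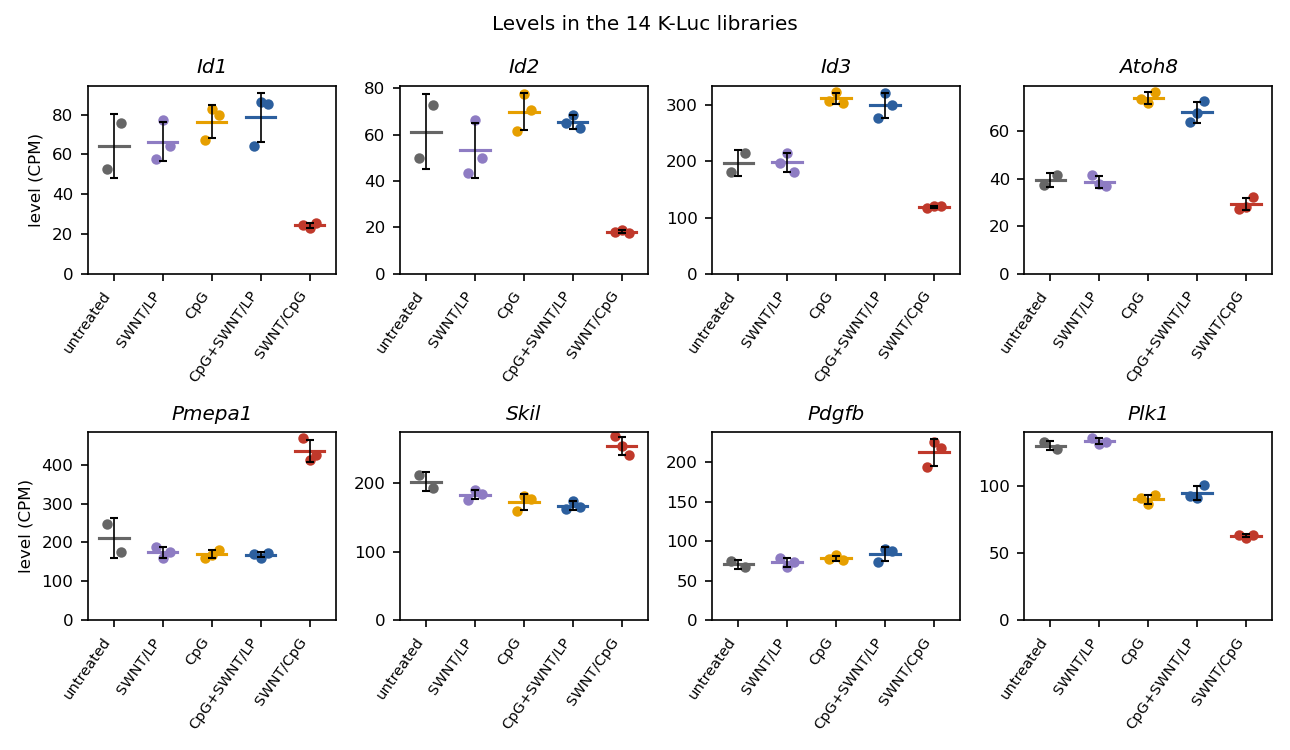
Level in CPM (y axis, from 0) of 8 genes in each of the 14 K-Luc libraries, grouped by treatment on the x axis; points are libraries, bars the mean and whiskers the SD. The 3 SWNT/CpG libraries lie below all others for Id1, Id2, Id3, Atoh8 and Plk1, and above all others for Pmepa1, Skil and Pdgfb.

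TGF-beta targets and feedback genes moved the other way. Of 11 tested, 7 rose and 1 fell (median 0.44), and in the whole TGF-beta list 10 of 28 rose and 3 fell (median 0.09; 1 fall in run 2 alone and without replicate 1 of the unjoined group). Pmepa1, a membrane protein that traps SMAD2 and SMAD3 and is induced by them, was at 467, 412 and 425 CPM in the joined and 172, 161 and 172 CPM in the unjoined libraries (1.37 ± 0.08, adjusted p = 4.47e-08). Ctgf, a matricellular growth factor that YAP also drives, was at 114, 109 and 133 against 65.2, 60.8 and 72.1 CPM (0.85 ± 0.10, adjusted p = 3.95e-05). The negative regulators Ldlrad4 (31.3, 30.9 and 37 to 51.8, 53.5 and 54.4 CPM; 0.69 ± 0.07, adjusted p = 3.51e-06), Tgif1 (0.44 ± 0.06, adjusted p = 9.77e-05) and Smad7 (0.37 ± 0.06, adjusted p = 0.000654) rose with them. Skil, a SMAD co-repressor, was at 269, 254 and 242 against 163, 175 and 165 CPM (0.60 ± 0.05, adjusted p = 1.4e-06). None of these 6 genes had overlapping groups, against 28.8% of all genes without overlap.

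Ligands and mediators of the TGF-beta list changed less. Inhba, which encodes the subunit of activin A, rose from 23.4, 22.6 and 25.9 to 33.5, 32.5 and 37.5 CPM (0.53 ± 0.07, adjusted p = 9.87e-05). Ltbp2, a microfibril protein of the latent TGF-beta binding family, rose from 122, 163 and 164 to 194, 265 and 266 CPM (0.69 ± 0.10, adjusted p = 0.000445). Tgfb1 itself read 157, 136 and 135 against 112, 109 and 109 CPM (0.37 ± 0.11, adjusted p = 0.0331), but the call ended in 8 of 14 alternatives, including each of the 6 leave-outs (adjusted p 0.0667 to 0.153) and run 2 alone (0.179). Tgfb2 did not pass the test (0.19 ± 0.08, adjusted p = 0.0951). Smad3 was lower in the joined libraries (-0.25 ± 0.04, adjusted p = 0.000795), and no receptor of 7 tested rose.

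Several genes of growth factor ligands rose. Of 16 tested ligands 6 rose and none fell (median 0.22), while the whole list of ligands and receptor tyrosine kinase genes had 9 rises and 3 falls among 39. The block gave 13 and 7, and the falls dropped to 1 without replicate 3 of the unjoined group. Pdgfb, a ligand of the PDGF receptors that drive many gliomas, was at 193, 226 and 218 CPM in the joined and 74.3, 90.7 and 87.5 CPM in the unjoined libraries (1.34 ± 0.07, adjusted p = 3.62e-09). Its relatives Pdgfa (18.7, 21.9 and 22.1 to 29.2, 31.7 and 29.2 CPM; 0.52 ± 0.06, adjusted p = 1.68e-05) and Pdgfc (97.9, 100.2 and 102 to 137, 133 and 132 CPM; 0.42 ± 0.04, adjusted p = 1.72e-06) also rose. Pdgfb thus rose the most of these 3 ligands. Vegfa, the main angiogenic factor, rose from 93.6, 94.4 and 96.7 to 127, 129 and 129.8 CPM (0.44 ± 0.05, adjusted p = 5.12e-06), and Igf1 rose as well (0.62 ± 0.08, adjusted p = 7.94e-05). Among genes induced by ERK signalling, the inhibitor Spry1 rose from 2.85, 2.12 and 2.73 to 5.98, 5.72 and 5.7 CPM (1.19 ± 0.17, adjusted p = 9.61e-05), whereas the transcription factor Etv5 fell (-0.47 ± 0.08, adjusted p = 0.000343).

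Every tested gene of mitosis was lower with joined nanotubes: 40 of 40 were called, with log2 fold changes from -0.60 to -0.35 and a median of -0.47. All 40 stayed called with any 1 library left out, and 39 in run 2 alone. Plk1, the polo-like kinase of mitotic entry and spindle assembly, was at 63.7, 61.8 and 63.7 CPM in the joined and 92.5, 91.4 and 101 CPM in the unjoined libraries (-0.59 ± 0.05, adjusted p = 6.89e-07). Aurkb, the kinase of the chromosomal passenger complex, was at 45.2, 49.3 and 51.6 against 67.6, 75 and 78.8 CPM (-0.60 ± 0.05, adjusted p = 4.81e-07). Cdc20, an activator of the anaphase-promoting complex, was at 83.4, 83.6 and 84.5 against 108, 119 and 122 CPM (-0.48 ± 0.04, adjusted p = 1.04e-06). These 3 falls were moderate. Their groups did not overlap, which holds for 28.8% of all genes, and the 3 were picked by small adjusted p. Mki67, the antigen behind Ki-67 staining (-0.52 ± 0.05), the topoisomerase Top2a (-0.49 ± 0.06), Cdk1 (-0.43 ± 0.06), the spindle protein Hmmr (-0.52 ± 0.04) and the mitotic transcription factor Foxm1 (-0.43 ± 0.04) fell by like amounts.

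DNA replication genes fell too, 30 of 36 with the other 6 also below 0 (median -0.37). All 36 were called with the block, 24 to 26 with 1 library left out, 19 in run 2 alone and 14 without the run term. The DNA ligase Lig1 (-0.49 ± 0.05, adjusted p = 6.78e-06), the ribonucleotide reductase subunits Rrm1 (-0.37 ± 0.04, adjusted p = 2.24e-05) and Rrm2 (-0.48 ± 0.08, adjusted p = 0.000896), thymidine kinase Tk1 (-0.65 ± 0.09, adjusted p = 0.000143) and the polymerase subunit Pole (-0.43 ± 0.06, adjusted p = 6.74e-05) were among them. Of 16 cell cycle regulators 8 fell and none rose (median -0.23); 1 rose with the block, and 3 fell without the run term. Ccnd1, the G1 cyclin D1, was at 281, 276 and 293 against 347, 349 and 374 CPM (-0.33 ± 0.05, adjusted p = 0.000171), and the CDK inhibitor Cdkn2c fell as well (-0.46 ± 0.05, adjusted p = 5.38e-06). Cdkn1a, the p53-induced inhibitor p21, did not pass the test (0.03 ± 0.13, adjusted p = 0.915).

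The promoters of Plk1 and Cdc20 are shown for the letters shared by many mitotic genes. Capitals mark TTTGAA, the cell cycle genes homology region known as CHR, and CCAAT, the letters bound by NF-Y; both strands were searched and no marked stretches overlap. The runs are the last 150 bases of the window, ending 50 bases after the RefSeq start (GRCm38.p6), at chr7:122159335-122159484 (plus strand) and chr4:118437294-118437443 (minus).
Plk1: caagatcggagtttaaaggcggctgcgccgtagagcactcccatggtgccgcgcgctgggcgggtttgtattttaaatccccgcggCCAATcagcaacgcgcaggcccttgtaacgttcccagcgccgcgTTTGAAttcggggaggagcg
Cdc20: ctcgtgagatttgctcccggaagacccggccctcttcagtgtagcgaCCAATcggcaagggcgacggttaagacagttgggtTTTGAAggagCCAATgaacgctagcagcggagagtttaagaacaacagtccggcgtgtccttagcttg
Of the 40 mitosis genes 34 had a promoter in the table. CHR letters stood in 23 of these (67.6%), against 13.8% of 9449 promoters of tested genes and 17.9% of all 32851 promoters. CCAAT stood in 26 of the 34 (76.5%), against 43.5% and 37.4%. These shares describe a list of mitosis genes and not the contrast. Promoters of called falls held CHR letters in 22.9% of cases and those of called rises in 11.4%, as a description with no test. Exons of Plk1 and Cdc20 overlap genes on the opposite strand, so part of their counts may belong to those if strand was not used.

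Genes of the unfolded protein response were slightly but uniformly higher: all 23 tested were above 0 (median 0.16), and 13 were called. The count was 22 with the block, 6 without the run term, 8 in run 2 alone and 6 to 10 with 1 library left out, lowest without replicate 3 of the joined group. Xbp1, the transcription factor spliced by IRE1, was at 117, 129 and 129 CPM in the joined and 87.8, 91.7 and 95.3 CPM in the unjoined libraries (0.45 ± 0.05, adjusted p = 2.64e-05). The sensor Atf6 (0.31 ± 0.04, adjusted p = 6.93e-05), the chaperone Hspa5, also called BiP (0.28 ± 0.06, adjusted p = 0.00214), and calreticulin Calr (0.22 ± 0.04, adjusted p = 0.000591) rose by less. These are differences of under 0.5 log2 units, larger than the spread between libraries but small beside those of the Id genes. The Hspa5 promoter shows the endoplasmic reticulum stress element (ERSE), to which NF-Y and ATF6 are known to bind, in capitals. It is CCAAT, then 9 bases of any kind, then CCACG, searched on both strands, each match by its make-up also a CCAAT match. The 200 bases lie at chr2:34771940-34772139 (plus strand, GRCm38.p6) and end 50 bases after the RefSeq start.
Hspa5: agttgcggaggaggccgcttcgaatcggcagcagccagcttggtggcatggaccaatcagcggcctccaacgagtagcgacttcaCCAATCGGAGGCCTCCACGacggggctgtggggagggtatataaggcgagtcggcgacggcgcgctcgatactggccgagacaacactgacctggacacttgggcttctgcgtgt
The element stood in 8 of the 19 promoters found for the 23 genes (42.1%), against 0.159% of promoters of tested genes and 0.119% of all. This search was added after the values were seen. The share covers list genes called or not, so it describes the list and not the contrast.

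**Figure D3:**
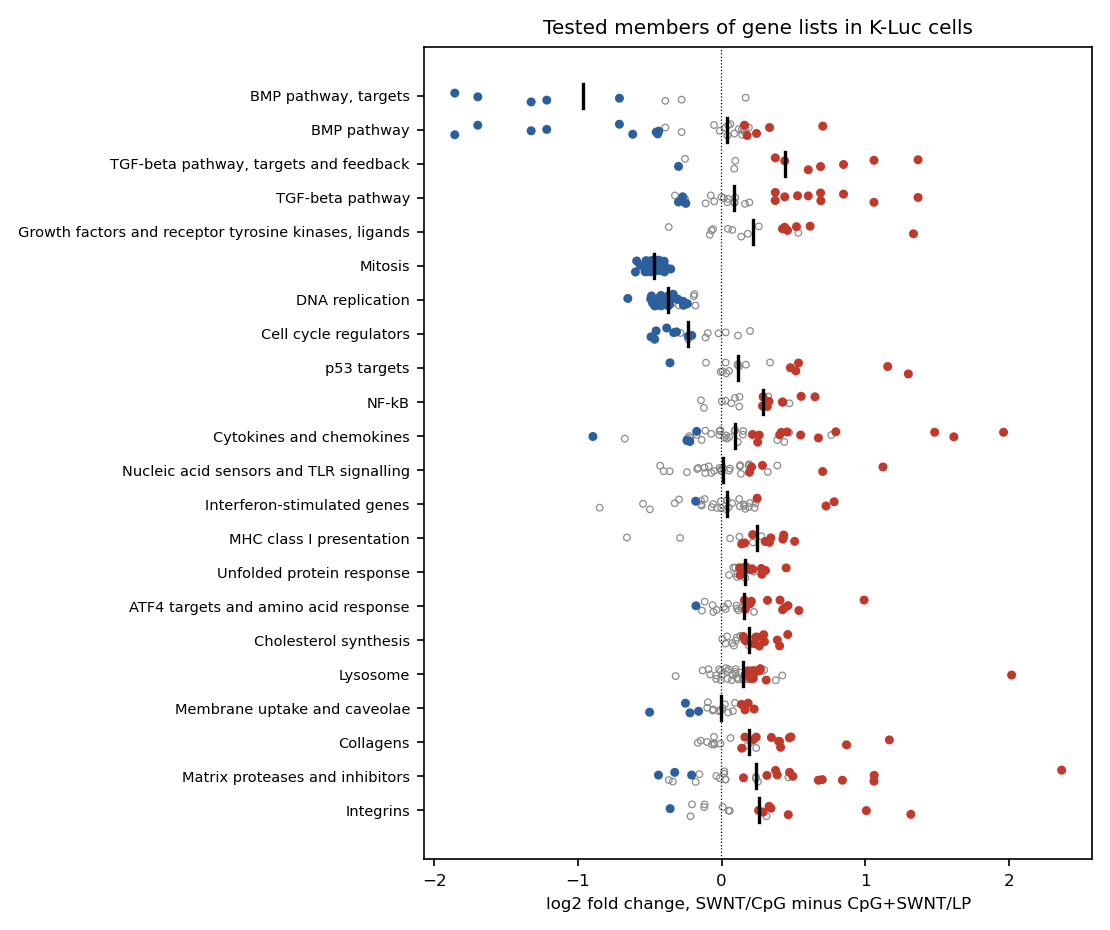
Log2 fold change, SWNT/CpG minus CpG+SWNT/LP (x axis), of each tested member of 22 gene lists or their roles (y axis); filled points are called rises (red) and falls (blue), open points not called, and the bar is the list's median. All 40 mitosis points lie between -0.60 and -0.35, while all 23 points of the unfolded protein response lie above 0.

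Other stress and metabolic lists had no common direction. Rises outnumbered falls in those of ATF4, cholesterol synthesis, the lysosome and p53, and not in those of heat shock, NRF2 and oxidative phosphorylation. Of 27 genes driven by ATF4 or amino acid shortage, 11 rose and 1 fell (median 0.16); the block gave 16 and 3, and no fall was called whichever library was left out. Nupr1, a small chromatin protein induced by stress, was at 130.0, 125 and 116 CPM against 63.8, 62.4 and 59.8 CPM (0.99 ± 0.06, adjusted p = 3.8e-08). Ppp1r15a, the phosphatase subunit GADD34 (0.42 ± 0.07, adjusted p = 0.000788), and the cystine transporter Slc7a11 (0.44 ± 0.09, adjusted p = 0.00174) rose less. Of the cholesterol synthesis list, 12 of 23 rose, and all 23 were above 0 (median 0.19); without replicate 2 or replicate 3 of the joined group 7 rose. Ebp, a sterol isomerase, was at 88, 92.5 and 95.3 against 68, 64.7 and 68 CPM (0.46 ± 0.05, adjusted p = 4.12e-06). Lysosome genes rose in 10 of 47 cases and fell in none (median 0.15), with 27 rises and 1 fall under the block, 5 in run 2 alone and 6 without replicate 3 of the unjoined or replicate 2 of the joined group. Apart from Ctsw their changes were small, such as the tetraspanin Cd63 (0.23 ± 0.04, adjusted p = 0.000993) and the proton pump subunit Atp6v1a (0.22 ± 0.05, adjusted p = 0.0042). Of 17 p53 targets 5 rose and 1 fell (median 0.11; 10 rises with the block). Pmaip1, the BH3-only protein Noxa, was at 30.1, 20.4 and 20.2 against 13, 10.3 and 8.22 CPM (1.16 ± 0.11, adjusted p = 1.59e-06), and the death receptor Fas rose (0.52 ± 0.11, adjusted p = 0.0028), while Sesn1 fell (-0.36 ± 0.05, adjusted p = 7.21e-05).

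Innate immune genes changed in part. Tlr9 was below the expression filter, as was Tnf, and the adaptor Myd88 did not pass the test (0.19 ± 0.07, adjusted p = 0.0776). Sensors and TLR signalling genes were called about as often as all genes (17.7%): of 29 tested 5 rose and none fell. Their median was 0.01. The block gave 9 rises and 1 fall, and 3 rises were called without replicate 1 of the unjoined group. Tlr2, the receptor for bacterial lipoproteins, was at 82.7, 107 and 91.7 CPM in the joined and 36.4, 50.7 and 42 CPM in the unjoined libraries (1.12 ± 0.07, adjusted p = 3.65e-08). The cytosolic nucleic acid sensor Zbp1 (0.70 ± 0.17, adjusted p = 0.00746) and the adaptor Traf3 (0.28 ± 0.05, adjusted p = 0.00152) rose too. Of 18 NF-kB genes 8 rose and none fell (median 0.29), with 6 to 8 rises when 1 library was left out, 4 in run 2 alone and 1 fall under the block. The inhibitors Nfkbie (0.65 ± 0.08, adjusted p = 4.71e-05) and Tnfaip3 (0.55 ± 0.09, adjusted p = 0.000641) and the subunit Nfkb2 (0.29 ± 0.04, adjusted p = 5.73e-05) were called. Thus feedback inhibitors and a subunit of the same pathway were higher together.

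Cytokine and chemokine genes split, 12 rising and 4 falling among 40 (median 0.09). The rises numbered 7 in run 2 alone and 8 without replicate 1 of the unjoined group, and the falls dropped to at most 2 with 1 library left out and to none without replicate 1 of the joined group. Lif, a cytokine of the interleukin-6 family known in glioma stem cells, was at 10.1, 11 and 11.6 against 5.61, 7.04 and 6.2 CPM (0.79 ± 0.11, adjusted p = 9.61e-05). The chemokines Ccl7 (0.55 ± 0.12, adjusted p = 0.00314) and Cx3cl1 (0.42 ± 0.06, adjusted p = 0.000205) rose. The receptor Cxcr4, which guides cells toward CXCL12, was low but higher in every joined library (2.22, 1.42 and 2.27 against 0.87, 0.339 and 0.748 CPM; 1.62 ± 0.31, adjusted p = 0.00173). Macrophage marker sums (above) overlapped between the groups. Of the 12 macrophage markers 4 were at 0 in all joined libraries and none in all unjoined ones, where those 4 averaged at most 0.0434 CPM. What part such markers have in the levels of these receptors was not tested. Interferon-stimulated genes showed 3 rises and 1 fall among 32, beside 8.54% and 9.12% of all genes (median 0.03; 8 and 4 with the block, no fall without replicate 1 of the unjoined group). The immunity-related GTPases Ifi47 (0.78 ± 0.07, adjusted p = 7.72e-07) and Irgm1 (0.73 ± 0.11, adjusted p = 0.000393) and the factor Irf1 (0.25 ± 0.05, adjusted p = 0.00436) were the rises. Of 16 genes of MHC class I presentation 9 rose and none fell (median 0.25; 13 and 1 with the block, 5 rises without replicate 2 of the joined group). The trimming peptidase Erap1 (0.34 ± 0.05, adjusted p = 0.0002) and the peptide-loading protein Tapbp (0.33 ± 0.07, adjusted p = 0.00272) are examples, as is H2-K1 (0.43 ± 0.06, adjusted p = 6.05e-05), whose reads may be shared with near-identical class I genes.

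Several lists of matrix and adhesion genes, of interest in cells taken from a migration assay, held more rises than falls. Of 26 genes of collagens and the enzymes that process them 12 rose and none fell (median 0.19), with 8 to 10 rises when 1 library was left out, lowest without replicate 1 of the unjoined group, and 2 falls with the block. Col5a3 (1.17 ± 0.15, adjusted p = 6.74e-05) and the anchoring fibril collagen Col7a1 (0.87 ± 0.11, adjusted p = 0.000157) rose most in this list, which does not hold Col4a4. Of 29 matrix proteases and inhibitors 12 rose and 3 fell (median 0.24; 6 rises in run 2 alone and 7 without replicate 1 of the unjoined group). The membrane protease Adam12 (1.06 ± 0.09, adjusted p = 8.84e-07) and the gelatinase Mmp2 (0.70 ± 0.11, adjusted p = 0.000273) were higher. Of 31 matrix glycoproteins and proteoglycans 6 rose and 1 fell (median 0.07), but the block gave 11 rises and 8 falls. The matricellular Wnt target Wisp1 was among the rises (0.96 ± 0.06, adjusted p = 5.57e-08). Of 17 integrin subunits 7 rose and 1 fell (median 0.26; 3 falls with the block). Itgb3, a partner of the alpha V chain in binding vitronectin, was at 136, 115 and 123 CPM in the joined and 63.3, 58.9 and 63.2 CPM in the unjoined libraries (1.01 ± 0.14, adjusted p = 0.000482). Its partner Itgav (0.29 ± 0.04, adjusted p = 0.000108) and the fibronectin receptor chain Itga5 (0.33 ± 0.05, adjusted p = 0.000169) rose less. Genes of focal adhesions and actin movement were called about as often as all genes (17.7%): 4 of 35 rose and 2 fell (median 0.06), with 12 rises under the block and no fall in run 2 alone or without replicate 1 of the unjoined group. The GTPase-activating protein Arhgap22 (36, 39.7 and 43.6 to 51.1, 64.5 and 64.7 CPM; 0.60 ± 0.06, adjusted p = 3.89e-06), the membrane-actin linker Msn (0.34 ± 0.04, adjusted p = 1.92e-05) and Rhob (0.33 ± 0.06, adjusted p = 0.000785) were among the rises. Of 19 genes for caveolae and membrane uptake 4 rose and 4 fell; run 2 alone gave 1 rise and 2 falls, and 2 rises were called without replicate 1 of the unjoined group. The falls included the caveola proteins Cav1 (-0.25 ± 0.05, adjusted p = 0.00119) and Sdpr (-0.50 ± 0.04, adjusted p = 9.36e-07).

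The joined libraries often stood at the edge of all K-Luc libraries and not only apart from the unjoined ones. In 894 genes (7.2% of those tested) the 3 joined libraries were above all 11 others, and in 778 (6.26%) below all 11. Of the called rises 680 (64.1%) and of the called falls 615 (54.3%) had this form. The 12 largest rises all did, and 10 of the 12 largest falls, genes already chosen for not overlapping with the unjoined libraries. The reverse form, in which the unjoined libraries alone stood above or below all 11 others, was met in 43 and 22 genes. A different form sets free CpG-28, with or without lipid-coated nanotubes, apart from everything else: the 6 libraries of CpG and CpG+SWNT/LP were above the 8 others in 273 genes (2.2%) and below them in 156 (1.26%). Among called falls 184 (16.2%) had it, and among called rises 106 (9.99%). Id3 and Atoh8 show it. Among other named genes, so do the falls of Bmp4 and Smad9 and the rises of Vegfa, Traf3, Slc7a11 and Tubb3. In these other genes the joined libraries were not beyond all 11 others. Id3 averaged 312 ± 10.3 CPM (SD, n = 3) with CpG and 198 ± 23.5 CPM (SD, n = 2) in water, and Atoh8 73.9 ± 2.39 and 39.4 ± 2.78 CPM. For both the joined group, at 119.6 ± 1.88 and 29.2 ± 2.59 CPM (SD, n = 3), lay below the untreated one too. Plk1 had another order: it averaged 130.5 ± 3.33 CPM in water, 90.4 ± 3.52 with CpG, 94.9 ± 5.17 unjoined and 63.1 ± 1.06 joined. Libraries of the middle pair overlapped. Islr averaged 6.3 ± 1.27 CPM in water, 18 ± 4.06 with CpG, 17.5 ± 2.11 unjoined and 8.57 ± 0.981 joined, so its joined mean lay between the untreated and the unjoined one. Aldh3a1 ranged from 51.2 ± 19.5 CPM with CpG to 8.36 ± 0.875 CPM joined, the highest and lowest of its 5 group means.

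The same contrast in RAW-Blue cells (2 against 2 libraries) was set against the K-Luc one in a joint fit of all 24 libraries. The difference, RAW-Blue minus K-Luc, was called for 662 of 13350 genes (4.96%), 376 positive (2.82%) and 286 negative (2.14%). The lines also differ in treatment time, so line and time cannot be told apart. These counts depend on single libraries, falling to 213 without replicate 1 of the unjoined RAW-Blue group. For Pmepa1 the RAW-Blue libraries read 0.405 and 0.9 CPM joined against 5.21 and 6.32 CPM unjoined (log2 fold change -3.09 ± 0.28, adjusted p = 0.00722), opposite in direction to K-Luc, a difference of -4.45 ± 0.27 (adjusted p = 6.37e-10). Cxcr4 likewise read 3.3 and 4.91 against 12.5 and 14.1 CPM (-1.70 ± 0.18, adjusted p = 0.00917), a difference of -3.31 ± 0.36 (adjusted p = 1.1e-05). Both thus rose in the glioma line and fell in the macrophage line.

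Id1, Id2 and Id3 had no called change in RAW-Blue cells (adjusted p from 0.0909 to 0.975), and for each the difference from K-Luc was called. Id1 was at 13.1 and 13.4 CPM joined and 8.35 and 9.41 CPM unjoined there, a difference from K-Luc of 2.28 ± 0.20 (adjusted p = 7.67e-07). Id2 read 24.7 and 25.2 against 23.7 and 28.8 CPM, a difference of 1.79 ± 0.23 (adjusted p = 0.000158). Id3 read 8.27 and 14.3 against 11.5 and 11.7 CPM (1.31 ± 0.19, adjusted p = 0.000434). All 3 differences were positive, with a called fall in K-Luc alone. Pdgfb was at 174 and 205 against 195 and 203 CPM, where K-Luc had a rise (-1.40 ± 0.13, adjusted p = 7.67e-07). Plk1 read 104 and 109 against 99.2 and 101 CPM (0.69 ± 0.11, adjusted p = 0.000831), and 13 of 40 mitosis genes differed between the lines, all positive. That of Cdc20 did not pass (0.38 ± 0.12, adjusted p = 0.0662). In the unfolded protein response 13 of 23 differed, all negative, with medians of 0.16 in K-Luc and -0.19 in RAW-Blue. Of 36 interferon-stimulated genes 9 differed, all positive, with medians of 0.03 and 0.66 over the 31 genes tested in both.

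**Figure D4:**
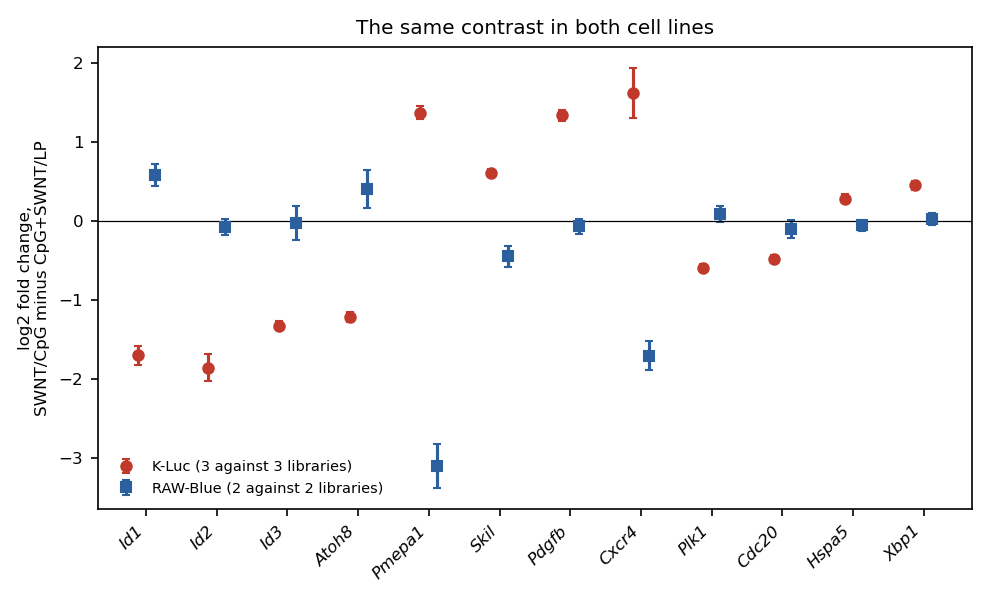
Log2 fold change, SWNT/CpG minus CpG+SWNT/LP (y axis), with its SE as whiskers, for 12 genes (x axis) in K-Luc (red circles, 3 against 3 libraries) and RAW-Blue cells (blue squares, 2 against 2). Pmepa1 lies at 1.37 in K-Luc and -3.09 in RAW-Blue, and the 3 Id genes lie below -1 in K-Luc alone.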

How the data were processed

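RNA from poly(A) libraries made with a stranded kit was counted per gene; TopHat2 2.0.14 and HTSeq 0.6.0 with mm9 are named in the submitters' processing notes. Not given in the sources used here were the gene annotation, the strand option and any filter. Raw read counts of 21669 genes fill the authors' table, with no per-sample column left unused. The authors' deposited RPKM table, rounded by them, served only to compare levels between genes.

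The tests used edgeR 4.0.16 under R 4.3.3 (library scaling by TMM, filterByExpr by group with minimum count 10 and minimum total 15, robust quasi-likelihood F test). All 14 K-Luc libraries shared 1 fit with group and run terms and 8 residual degrees of freedom, where the run term was called for 2155 genes. All 24 libraries shared the fit of the difference between lines, and the 10 RAW-Blue libraries a fit of their own. Calls are at a Benjamini-Hochberg adjusted p under 0.05 over all tested genes, and SEs are the size of a log2 fold change over the root of its F. CPM values are TMM-scaled, except the marker sums and the averages given for markers under 1 CPM, which are scaled by library size alone. Simulated counts with known changes gave back 98% of changes of 1 log2 unit and 100% of 2 units for the K-Luc contrast. Of its calls 5.26% were false (over 12420 genes). The simulation changed 100 expressed genes by each size and drew the libraries independently. Called genes in the data had a median size of 0.31 log2 units and libraries that deviated together, so these shares do not describe those calls.

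Same-numbered joined and unjoined libraries deviated together from their group means (correlations 0.717, 0.426 and 0.552, against -0.578 to 0.273 for other pairs). Run was not removed from these deviations. Among run 2 libraries same numbers gave 0.426 and 0.552, against 0.273 for other pairs. Run 2 holds 2 libraries of each group, so these values are not independent of one another. The replicate numbers were taken to pair the libraries, on the data alone. The block result is given where it moves a count by over 1.5 times. In the compared groups replicate 1 is also run 1, so the block and the run term overlap. The block was applied to CpG and SWNT/LP too, whose replicate 1 is run 2.

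The members of the comparison and the gene lists were chosen with earlier results of these data known. Named genes are the 12 largest rises and 12 largest falls (called, mean log2 CPM of at least 1, no overlap, above 3 counts in both groups), up to 5 called genes per list by adjusted p, a fixed set (Id1 to Id4, Atoh8, Smad6, Smad7, Pmepa1, Skil, Bmp4, Tgfb1, Tgfb2, Pdgfb, Ccnd1, Cdkn1a, Fos, Tlr9, Myd88, Actb, Tnf), and 36 genes added after their values were seen, such as Smad9, Fstl1, Inhba, Spry1, Mki67 and Tk1. From the difference between lines, 6 genes in each direction were named by size. Some genes that these rules name are not reported here. As alternatives, DESeq2 1.42.0 was run, and edgeR with DESeq2's size factors, without the filter, without the run term, with the replicate block, on run 2 alone, on only the 2 groups and with each library left out. At 13.6 M counts a gene at 1 CPM has about 13.6 counts. Promoter sequences came from a RefSeq table of GRCm38.p6. Exons of Gadd45a, Notum, Id4, Ctgf, Pdgfa, Pdgfc, Plk1, Cdc20, Tk1, Bmp4, Ltbp2, Tgfb2, Spry1, Ccnd1, Cdkn1a, Erap1, Tapbp, Ifi47, Irf1, Nfkb2, Ppp1r15a, Arhgap22, Notch1, Ndrg1, Map2, Mt2, Lig1 and Pole overlap genes on the opposite strand, and since the strand setting is unknown their counts may include those genes' reads. Those of Foxm1, Ifi47 and Col7a1 overlap genes on the same strand.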

Additional observations from a re-analysis of the deposited data

Results flagged for a closer look

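The contrast of joined against unjoined nanotubes differed between RAW-Blue and K-Luc cells for 19 of the 20 genes reported singly. Those named by the size of the difference were picked among called genes, so this count is not a rate. Over all genes the difference was called for 662 of 13350 (4.96%). Values are log2 units, RAW-Blue minus K-Luc ± SE, from edgeR's joint fit. Positive differences among genes named for K-Luc were those of Id1 (2.28 ± 0.20, adjusted p = 7.67e-07), Id2 (1.79 ± 0.23, adjusted p = 0.000158), Atoh8 (1.63 ± 0.22, adjusted p = 0.000134), Id3 (1.31 ± 0.19, adjusted p = 0.000434) and Plk1 (0.69 ± 0.11, adjusted p = 0.000831). Negative ones were those of Pmepa1 (-4.45 ± 0.27, adjusted p = 6.37e-10), Cxcr4 (-3.31 ± 0.36, adjusted p = 1.1e-05), Pmaip1 (-1.54 ± 0.22, adjusted p = 0.000543), Pdgfb (-1.40 ± 0.13, adjusted p = 7.67e-07), Skil (-1.04 ± 0.13, adjusted p = 5.99e-05), Xbp1 (-0.41 ± 0.10, adjusted p = 0.0182) and Hspa5 (-0.33 ± 0.09, adjusted p = 0.0449). The call for Hspa5 ended in 10 of 15 alternatives, in run 2 alone and in every leave-out except that of replicate 1 of the joined K-Luc group (adjusted p up to 0.188). That for Xbp1 ended in 4, without replicate 1 of the unjoined K-Luc group, replicate 2 of the unjoined RAW-Blue group or either joined RAW-Blue library (up to 0.102).

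Further genes were named by the size of the difference. Positive were Lcn2 (2.97 ± 0.83, adjusted p = 0.0488), which encodes the iron-siderophore carrier lipocalin 2, Cp (2.23 ± 0.39, adjusted p = 0.00378), which encodes ceruloplasmin, Podxl (2.12 ± 0.37, adjusted p = 0.00127), Camkk1 (2.01 ± 0.42, adjusted p = 0.0067) and Rapgef3 (2.00 ± 0.46, adjusted p = 0.0122). Negative were Atg9b (-1.89 ± 0.49, adjusted p = 0.0251) and Sec16b (-1.74 ± 0.33, adjusted p = 0.00464). Lcn2 read 44.2 and 84.9 CPM joined and 8.35 and 11.9 CPM unjoined in RAW-Blue cells and did not pass the test in K-Luc cells (-0.32 ± 0.46, adjusted p = 0.705); its call ended in 11 of 15 alternatives, with leave-one-out adjusted p from 0.00901 to 0.15. The call for Atg9b ended in 7, in run 2 alone and in 6 leave-outs (adjusted p up to 0.167), and that for Rapgef3 in 4, the latter without any 1 of the 4 RAW-Blue libraries (adjusted p up to 0.102). Those for Camkk1 and Sec16b ended without replicate 1 of the unjoined or replicate 2 of the joined RAW-Blue group (adjusted p up to 0.236 and 0.0759). Podxl, Camkk1, Rapgef3 and Sec16b were under 2 CPM in all 4 RAW-Blue libraries.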

How the results depend on the processing

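In the K-Luc contrast 2194 genes were called (1061 rises, 1133 falls). Fitting only the 2 groups gave 3695 (1873 and 1822), the replicate block 4009 (2062 and 1947), and the block with only the 2 groups 4531 (2310 and 2221). Run 2 alone gave 1177 (593 and 584), and dropping the run term 705 rises. DESeq2, its size factors and no filter kept all 3 counts within 1.5 times. Leaving out 1 library gave 1423 to 1603 calls, 659 to 778 rises and 749 to 825 falls. Of the 2194 calls the block kept 100%, DESeq2 86.1%, no run term 67.2% and run 2 alone 53.2%. The difference between the lines, called for 662 genes (376 positive, 286 negative), fell to 295 (152 and 143) in run 2 alone and to between 213 and 480 (87 to 288 and 126 to 219) with 1 library left out; the block gave 849 (469 and 380). Of 207 named genes called in K-Luc, 152 were called in every alternative, as were 22 of the 24 largest changes; the block changed no named call to lost. The one change of sign was that of Cdkn1a, never called, between -0.049 and 0.113 with 1 library left out. The cause was not tested in any case. Run 2 alone and the leave-outs hold fewer libraries, and run 2 alone also lacks the run 1 libraries and the run term. At 1 CPM the smallest library has about 13.6 counts, so differences of genes below that level are poorly resolved.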

Other observations

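Several further lists had few called genes or calls in both directions, beside 8.54% called higher and 9.12% called lower over all genes. Of 15 heat shock and metal response genes 2 fell and none rose: the metallothioneins Mt1 (369, 394 and 348 to 290.2, 306 and 278 CPM; -0.35 ± 0.06, adjusted p = 0.000902) and Mt2 (-0.37 ± 0.07, adjusted p = 0.00163). Of 34 oxidative phosphorylation genes 1 fell (3 with the block, none in run 2 alone), and of 28 glycolysis and hypoxia genes 3 rose and 2 fell (6 falls with the block). In the latter list Egln3, an oxygen-sensing prolyl hydroxylase, fell (-0.73 ± 0.08, adjusted p = 1.4e-05) while Ndrg1 rose (0.43 ± 0.07, adjusted p = 0.000647). NRF2 and glutathione genes split, 3 rising and 5 falling of 28, with Hmox1, which encodes heme oxygenase 1, higher (0.37 ± 0.07, adjusted p = 0.00224) and the ferritin chain Fth1 (-0.22 ± 0.04, adjusted p = 0.000934), Gstm1 (-0.31 ± 0.06, adjusted p = 0.000996) and Gclm (-0.23 ± 0.05, adjusted p = 0.00242) lower.

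Axon guidance genes were called in both directions, 6 of 32 each way, and 10 each way with the replicate block. Run 2 alone gave 2 each way, and 1 fall was called without replicate 1 of the joined group. Sema7a, a membrane-anchored semaphorin, was at 75.5, 88.5 and 99.2 CPM in the joined and 33.5, 40.7 and 54.2 CPM in the unjoined libraries (1.04 ± 0.13, adjusted p = 0.000152). Slit2, a secreted repellent, fell from 399, 406 and 411 to 309.5, 307 and 299 CPM (-0.41 ± 0.07, adjusted p = 0.00138). In the Notch list the receptor Notch1 fell (-0.51 ± 0.08, adjusted p = 0.00046) and the ligand Jag1 rose from 32.9, 34.1 and 35.2 to 47, 44.5 and 53.9 CPM (0.51 ± 0.10, adjusted p = 0.00157).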
